A study of Mus musculus with 2 samples.

Results

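The genes described here encode the machinery of MHC class II presentation. They were the 9 rows of the deposited matrix that carry the symbols Cd74, H2-Aa, H2-Ab1, H2-Eb1, H2-DMa, H2-DMb1, H2-DMb2, H2-Oa and Ciita, of 32285 genes in all, and each symbol named a single row. MHC class II molecules are pairs of an α and a β chain that show peptides from endocytosed proteins to CD4+ T cells. The chains are assembled on the invariant chain (Cd74), which is then degraded, and H2-DM exchanges its last fragment for peptide, whereas H2-O restrains H2-DM. Ciita is the transactivator that drives most of these genes, in B cells, dendritic cells and, after interferon-γ, in many other cells. In the lung, alveolar type 2 epithelial cells and macrophages can also carry class II.

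Lungs came from wild-type C57BL/6J mouse fetuses at gestation day 18. From gestation day 12 their mothers, otherwise untreated and 9 weeks old, were given drinking water that held either dexamethasone (DEX), a synthetic glucocorticoid, at 1.3 µg/ml, or PBS. Fetuses were pooled by litter, with 8 and 9 fetuses in the litters DEX-1 and DEX-2 and 5 and 8 in PBS-1 and PBS-2, so each group had 2 litters, and a litter is the replicate. Live CD45+ Lin- ST2+ cells, the gate for ILC2s, were sorted, each litter was marked with its own hashtag antibody, and all were read together in 5′ single-cell libraries. Values are counts of unique molecular identifiers (UMIs), given per 1000000 UMIs of the same cells and litter (CPM). Since a 5′ library gives 1 end of each transcript, UMI counts do not scale with transcript length.

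Of 10409 barcodes that passed the study's limits, 7268 carried the hashtag of 1 litter (1737 to 1890 cells and 18665955 to 23660294 UMIs a litter). Cells were clustered with the members and all other H2- genes kept out, and clusters were named from marker genes. The classes were B-like (199 cells), myeloid-like (186), epithelial-like (450), ILC2-like (1518), basophil or mast-like (3229), endothelial-like (292) and mesenchymal-like (231), and 16% of the cells stayed unnamed. The largest unnamed cluster, of 526 cells, had ILC2 as its best marker set (8 of 11 markers, mean share 57.1%). Its leading genes held 2 T cell markers and 0 ILC2 markers, so it was not named. The ILC2-like values leave these cells out, save where an alternative joined them. The myeloid-like class was 1 cluster, led by Ear2, Wfdc17 and Mcemp1 with macrophage or monocyte markers, and no cluster could be named dendritic. The sort did not leave ILC2s alone. Il1rl1, which encodes ST2, had a UMI in 75.9% of ILC2-like and 83.6% of basophil or mast-like cells, but in 3.02% of B-like cells. These B-like and epithelial-like cells are those that came through a sort for other cells, so their levels need not be those of all fetal lung B cells or epithelium.

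By the GENCODE M21 annotation (GRCm38), the class II chains and their editors lie on the plus strand of chromosome 17 except for H2-Aa, in the order H2-Oa (34092340-34095234), H2-DMa (34119541-34139101), H2-DMb2 (34143307-34151555), H2-DMb1 (34153072-34160230), H2-Ab1 (34257689-34269419), H2-Aa (34282744-34287823, minus strand) and H2-Eb1 (34305867-34316674). Ciita lies on chromosome 16 (10480059-10528418, plus strand). All 9 are protein-coding. H2-Oa lies inside the antisense gene BC051537, H2-DMa shares 3094 bases with Brd2, H2-Eb1 2204 bases with Gm20513 and Ciita 25888 bases with Dexi, each on the other strand. The strand setting of the counting is not given in the sources used here, so reads of these pairs may not have been told apart. BC051537 itself stood at 0 to 0.659 CPM in the ILC2-like litters, where H2-Oa stood at 67.0 CPM or above.

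Class II promoters are known for an X box and a Y box upstream of the start, which are bound by the RFX and NF-Y complexes that Ciita docks on. RefSeq promoter windows (250 bases before to 50 bases after a start, GRCm38.p6) were at hand for 6 of the 9 members. Stretches of 45 bases around the Y box are shown for 5 of them and for H2-Ob, the partner of H2-Oa, because they let the genes be compared where the transactivator acts. They are printed 5′ to 3′ on the gene's strand, with GATTGG (Y-like) and, where present, AACNGATG (X-like) in capitals.
H2-Oa (chr17:34092299-34092343, plus): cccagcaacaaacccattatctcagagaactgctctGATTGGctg
H2-DMb2 (chr17:34145122-34145166, plus): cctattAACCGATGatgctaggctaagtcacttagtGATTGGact
H2-DMb1 (chr17:34153093-34153137, plus): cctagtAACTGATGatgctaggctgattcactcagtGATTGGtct
H2-Ob (chr17:34238811-34238855, plus): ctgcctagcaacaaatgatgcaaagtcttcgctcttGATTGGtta
H2-Aa (chr17:34287864-34287908, minus): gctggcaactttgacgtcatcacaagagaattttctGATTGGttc
H2-Eb1 (chr17:34305771-34305815, plus): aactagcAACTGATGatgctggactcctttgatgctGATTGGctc
These letters were chosen after looking at the promoters of the members. Only exact matches are marked, so a stretch with no X-like capitals need not lack an X box. On either strand, X-like letters were in 762 of 32851 promoters (2.32%) and Y-like letters in 16.1%, and an X-like followed within 40 bases by a Y-like match on the gene's strand was in 7 promoters (0.0213%), of which H2-DMb1, H2-DMb2 and H2-Eb1 are members. H2-DMb1 and H2-DMb2 had 39 of these 45 bases in common (86.7%), while the other pairs shared 24.4% to 55.6%. H2-DMa had a Y-like match only before the second of its 2 starts, 199 bases upstream.

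B-like cells held the invariant chain and the classical chains at levels far above every other named class, whereas H2-DMa was as high in myeloid-like cells, H2-Oa was 2.14 times the ILC2-like level over pooled UMIs, and H2-DMb1 was scarce. Cd74 stood at 15640 and 17130 CPM in the DEX litters and at 15220 and 15180 CPM in the PBS litters, about 116 times the epithelial-like level over pooled UMIs (exact 95% interval 109 to 123, counting error only). H2-Aa, the α chain of I-A, stood at 1019 to 1233 CPM, its β chain H2-Ab1 at 710.3 to 878.7 CPM and the I-E β chain H2-Eb1 at 739.7 to 952.3 CPM over the 4 litters. For each of these genes the lowest B-like litter lay above the highest litter of any other named class. C57BL/6 mice do not make the I-E α chain, so that H2-Eb1 is read without its partner in this strain. The 9 genes summed to 19240 ± 1235 CPM (SD, n = 4 litters) in B-like cells.

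Among the peptide editors in B-like cells, H2-DMb2 (313.3 ± 69.9 CPM) and H2-DMa (152.3 ± 21.2 CPM) encode the chains of H2-DM, and H2-Oa (164.5 ± 42.5 CPM) the α chain of H2-O. H2-Ob, the β chain of H2-O, stood at 112.6 to 171.5 CPM. H2-DMb1, the near-identical sister of H2-DMb2, stood at 4.19 ± 4.97 CPM, with 3 UMIs in all 199 cells. Ciita stood at 18.7 ± 2.74 CPM, from 14 UMIs, and had its highest level in this class.

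**Figure D1:**
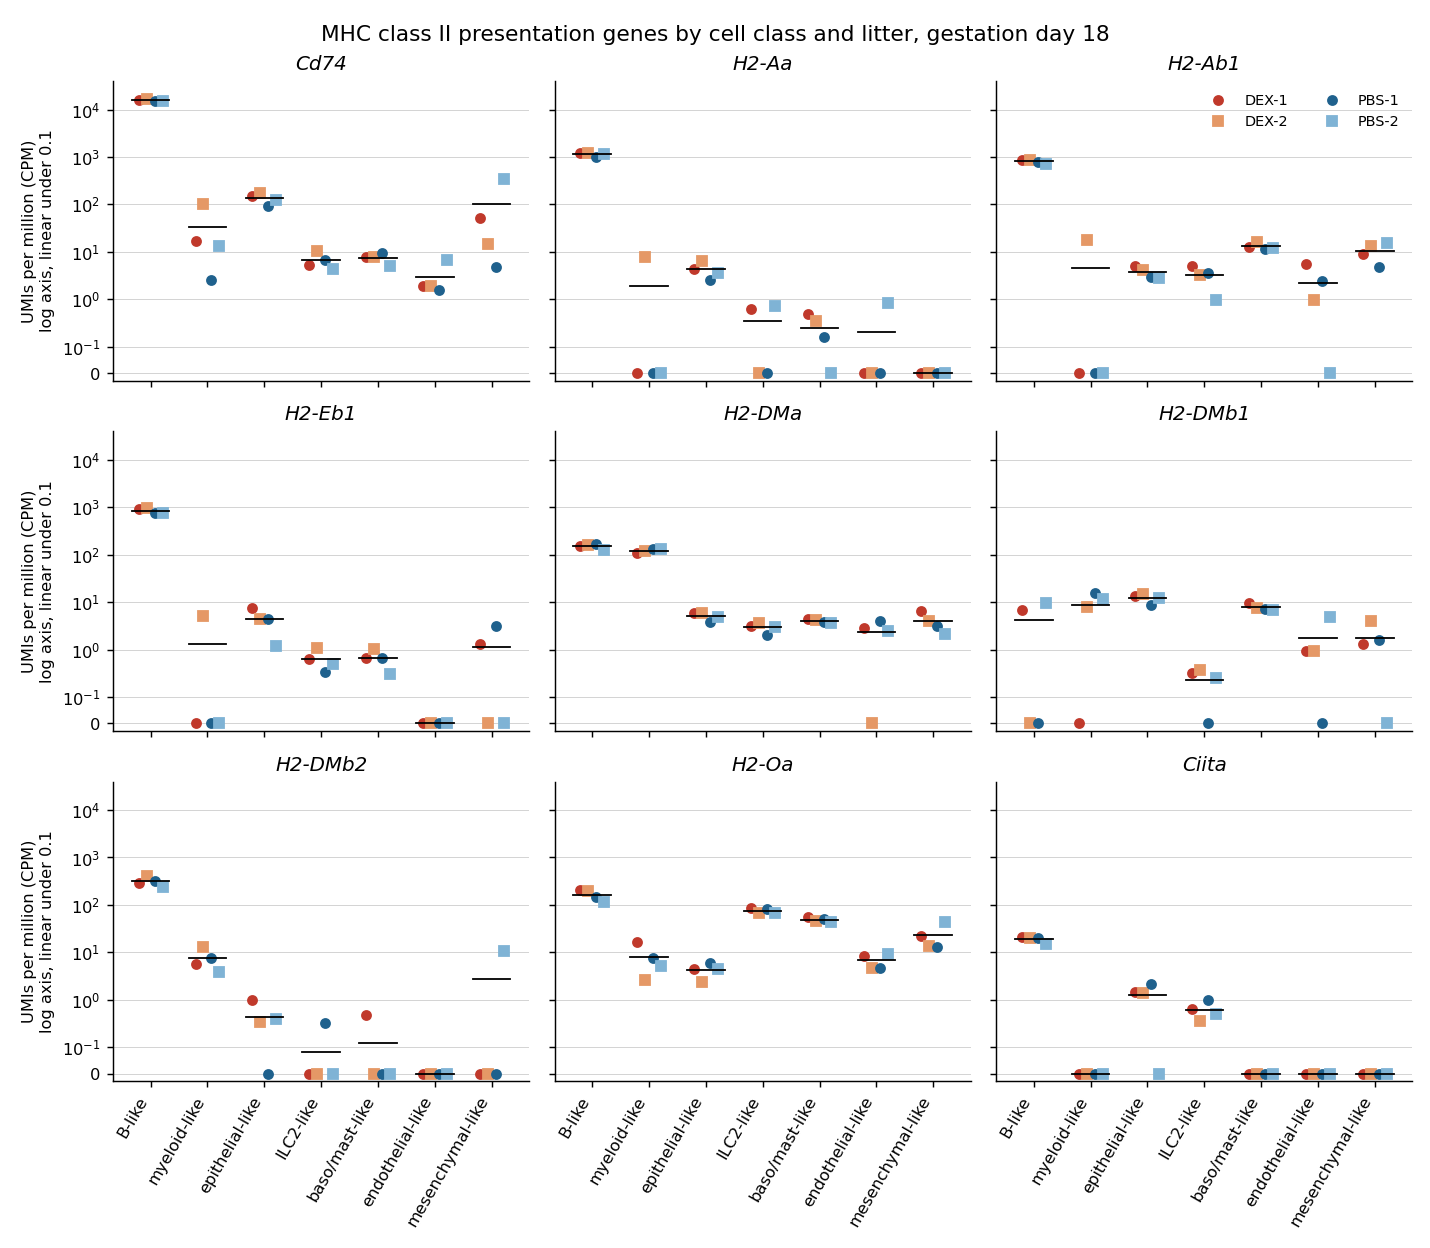
Level of each member in CPM (log axis, linear under 0.1) by cell class, with a point for each litter and a bar at the mean of the 4 litters. In 7 of the 9 panels all B-like litters lie above all litters of every other class, the panels that differ being H2-DMa, where myeloid-like cells reach the B-like range, and H2-DMb1, which is highest in epithelial-like cells.

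The invariant chain was read in nearly every B-like cell, whereas the classical chains were read in a part of them. After each cell was thinned to 1000 UMIs, so that depth was equal (1 shallower B-like cell left out), Cd74 had a UMI in 98.5% of 198 cells, at a mean of 17.5 UMIs a cell. H2-Aa had a UMI in 40.4% of cells, where 72% would have one if its 252 UMIs fell on all cells at 1 even rate. For H2-Ab1 the share was 37.9% where an even rate gives 58.5%, and for H2-Eb1 33.8% where it gives 58.9%. In all 4 litters the share of each chain was below the even-rate share. H2-DMa (16.2% against 15.8%), H2-DMb2 (30.8% against 30.5%) and H2-Oa (12.1% against 12.8%) had too few UMIs a cell (0.136 to 0.364) for this share to show whether they were spread evenly. Cd79a, part of the B cell receptor, had a UMI in 94.9% of cells where an even rate gives 99.2% (88.7% against 99.1% in PBS-1), and Ms4a1, which encodes CD20, in 81.8% where it gives 86.3%. In endothelial-like cells at the same depth, 0 of 289 had a Cd74 UMI, and H2-Aa had none in any class other than B-like.

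**Figure D2:**
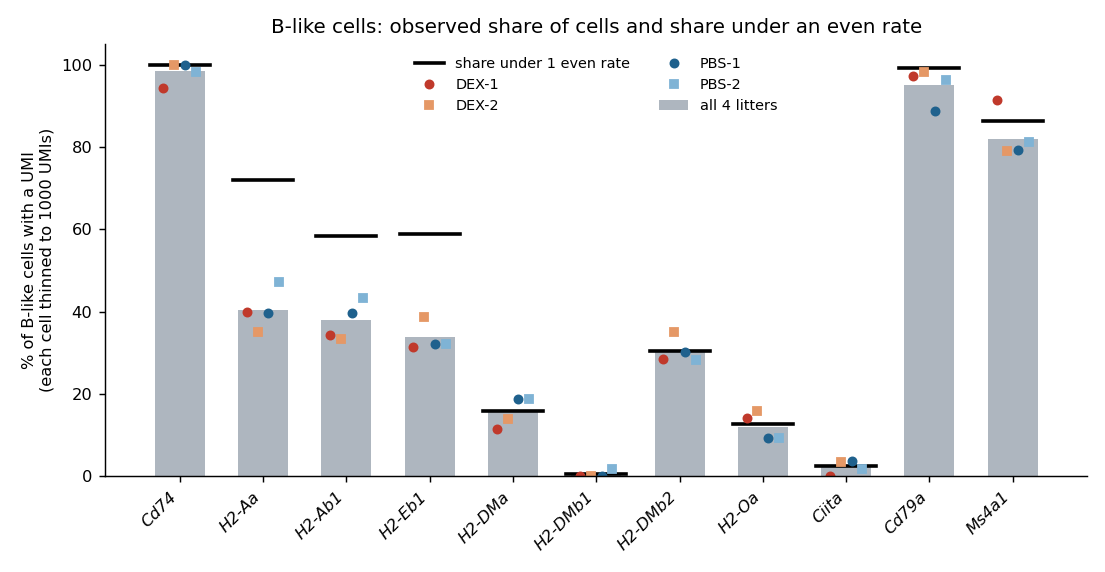
Percentage of B-like cells with a UMI after thinning to 1000 UMIs a cell (grey bars, 198 cells of 4 litters; points, each litter) and the percentage an even rate over cells would give (black lines). H2-Aa, H2-Ab1 and H2-Eb1 lie below their lines in every litter; the peptide editors have too few UMIs a cell for the bars to leave their lines.

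The same cells tended to hold the chains together. Of the 80 thinned B-like cells with an H2-Aa UMI, 73.8% had H2-Ab1 and 71.3% had H2-Eb1, and of the 118 without one 13.6% and 8.47% did. Both were higher among cells with H2-Aa in 4 of 4 litters. With 4 litters the exact permutation test over litters (two-sided) cannot go below p = 0.125, which is what both gave. Cd74 was read in both sets but at different depth, with 24.4 UMIs a cell against 12.9, and in DEX-1, where the gap was widest, with 27.4 against 10.5.

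Some of the peptide editors were higher in cells with H2-Aa as well. H2-DMb2 had a UMI in 43.8% against 22% of cells, H2-Oa in 16.3% against 9.32% and H2-Ob in 21.3% against 6.78%, each higher in 4 of 4 litters. H2-DMa had one in 26.3% against 9.32%, higher in 3 of 4 litters and lower in DEX-1 (7.14% against 14.3%). The 5 thinned cells with Ciita all had H2-Aa. Of other B cell genes, Fcmr, the IgM Fc receptor, was read in 28.8% against 14.4% of cells, and Cd24a, high on immature B cells, in 45% against 63.6%, lower in 4 of 4 litters. Vpreb3, another gene of developing B cells, was read in 57.5% against 74.6%, lower in 3 of 4 litters. Cd79a (92.5% against 96.6%) and Ms4a1 (80% against 83.1%) differed less. This split of the cells was chosen after values were seen, and the cells of a litter are not replicates. Early B cell genes were scarce. Igll1, Vpreb1, Vpreb2, Rag2 and Dntt had no UMI in 199 cells, while Rag1 was read in 2 cells and Il7r in 9 (4.52%). Of 8 later B cell genes, Ms4a1 was read in 98% and Cd37 in 98.5% of unthinned cells, and the other 6 in 0.503% to 45.2%.

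Myeloid-like cells, which leave out an unnamed S100a9-led cluster described below, held H2-DMa at the B-like level but hardly any of the chains it serves. H2-DMa stood at 106.6, 120.7, 129.3 and 129.5 CPM in DEX-1, DEX-2, PBS-1 and PBS-2, and the B-like litters overlapped this range. Cd74 stood at 16.8, 100.2, 2.59 and 13.1 CPM in the same litters. DEX-2 was high through a single cell, which held 38 of its 39 Cd74 UMIs and the only H2-Aa, H2-Ab1 and H2-Eb1 UMIs of the class. Without that cell, 185 myeloid-like cells had 15 Cd74 UMIs and 0 of H2-Aa, H2-Ab1 and H2-Eb1, and the summed level of the 9 genes was 152.9 ± 12.2 CPM, against 186.8 ± 59.2 CPM with it. Ciita was not read in the class, which allows up to 1.75 CPM.

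Between B-like and myeloid-like cells, 6 of the 7 members tested were called higher in B-like cells by edgeR's quasi-likelihood test with litter as a block (Benjamini-Hochberg adjusted p under 0.05 over all genes), where 58.1% of 4232 genes were called in either direction. These 6 passed the filter on low genes through the B-like cells, where they are high (2 to 53 myeloid-like UMIs each), so their number is no support by itself. The log2 difference was 8.83 ± 0.32 (SE) for Cd74 (adjusted p = 5.23e-12) and 5.19 ± 0.28 for H2-DMb2 (adjusted p = 5.04e-10). For H2-Oa it was 4.30 ± 0.33 (adjusted p = 2.92e-08). The Cd74 difference was 10.37 without the DEX-2 litter and 4.97 when cells were assigned by a per-cell marker gate, and passed in both. The fitted values of H2-Aa (8.91), H2-Ab1 (7.30) and H2-Eb1 (8.87) rest on 2 to 7 myeloid-like UMIs. As a ratio of pooled counts, H2-Aa was 657 times higher (exact 95% interval 224 to 3190) and H2-Eb1 712 times higher (196 to 5891), intervals that cover counting error alone. How the classes were drawn moved these values more, the fitted differences lying between 3.14 and 11.40 for H2-Aa and between 3.02 and 10.86 for H2-Eb1 over the alternatives, with the lowest under the per-cell gate, and both passed in all 15. Ciita was at least 10.6 times higher, set against 3 counts over the myeloid-like class. H2-DMa did not pass the test, with a log2 difference of 0.15 ± 0.20 (adjusted p = 0.546).

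The other genes of the pathway split between the classes. Of 9 loading and turnover genes tested, H2-Ob and Ifi30, a lysosomal thiol reductase, were higher in B-like cells, and the proteases Ctsb, Ctsd, Ctsl, Ctss and Lgmn were lower. Ctss, which trims the invariant chain, stood at 848.3 to 1728 CPM in myeloid-like and 255.3 to 327.3 CPM in B-like litters. Of 10 interferon and lineage inducers tested, 7 were higher in B-like cells, Irf4, Irf8, Pax5 and Spib among them, and Ifngr1 and Spi1 were lower. Of 10 MHC class I genes 8 were higher and none lower. The list medians were −0.85, 1.74 and 1.00, beside 0.00 over all genes tested. Of the RFX, NF-Y and CREB genes that bind these promoters 2 of 7 could be tested, and neither passed.

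Cells that held UMIs of Cd74, H2-Aa, H2-Ab1 and H2-Eb1 at once were counted as a set, a choice made after the levels were seen. There were 104 such cells among 7268 (1.43%). B-like cells made up 83 of them (41.7% of that class, 36.8% to 46.3% over litters). The remainder lay in small numbers in myeloid-like (1), epithelial-like (3) and unnamed clusters, and there was none in ILC2-like, basophil or mast-like, endothelial-like or mesenchymal-like cells. Most of any unnamed cluster, 8 cells from all 4 litters, lay in one of 323 cells led by Emp2, Hopx and Ager. That cluster had epithelial and endothelial markers (mean shares 93.4% and 86.1%). The 8 cells held 21.2% of its Cd74 and 36.2% of its H2-Aa UMIs.

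An unnamed cluster of 222 cells led by Prtn3, Gm15915 and Car1 had 7 cells with all 4 genes. These 7 held 97.6% of its Cd74 and 99.6% of its H2-Aa UMIs. In them Cd74 stood at 27330 CPM and H2-Aa at 11270 CPM. The 83 B-like cells picked by the same 4 genes had 21330 and 2570 CPM. Both sets were picked on UMIs of these genes, so the levels are a description. In the 7 cells H2-DMb1 (1141 CPM) stood above H2-DMb2 (181 CPM), the reverse of the 83 B-like cells (6.32 and 473.7 CPM). Of genes known from dendritic cells, Irf8, Flt3 and Cd209a were each read in 3 of the 7 cells, Ccr2, which monocytes also hold, in 5, Zbtb46 in 2 and Itgax in 1, and the macrophage and monocyte gene Csf1r was read in 2. Cd79a, Ms4a1 and Mpo had no UMI in any of them. They came from 3 litters, 2 from DEX-1, 2 from PBS-1 and 3 from PBS-2. The 215 cells left in that cluster still had 242 H2-Ab1 UMIs, read in 52.1% of them, but 3 of H2-Aa and 48 of Cd74. Another unnamed cluster, led by S100a9, Stfa1 and S100a8, had 2 cells of this kind, both from DEX-1. Its best marker set was macrophage or monocyte (11 of 11 markers, mean share 45.6%), but 3 neutrophil markers were among its leading genes. Without those 2 cells, its 61 cells had Cd74 at 198.3 CPM, read in 39.3% of them, and no UMI of H2-Aa or H2-Eb1.

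Epithelial-like cells held Cd74 without much of the chains. Cd74 stood at 149.6 and 171.1 CPM in the DEX litters and 92.4 and 125.9 CPM in the PBS litters, above all litters of endothelial-like, basophil or mast-like and ILC2-like cells. After thinning it was read in 39 of 448 cells (8.71%), against 0 of 289 endothelial-like cells. H2-Aa (4.27 ± 1.64 CPM), H2-Ab1 (3.70 ± 0.98) and H2-Eb1 (4.33 ± 2.52) were low, with 31.1 Cd74 UMIs for each H2-Aa UMI against 13.8 in B-like cells. H2-DMb1 stood at 12.3 ± 2.67 CPM, the highest mean of the 7 classes, though the litters overlapped those of myeloid-like and basophil or mast-like cells. Ciita had 12 UMIs in the class.

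Among the epithelial-like clusters Cd74 was highest in those rich in surfactant genes. In the cluster led by Lyz1 and Dlk1 it stood at 252.4, 321.0, 139.6 and 200.5 CPM in DEX-1, DEX-2, PBS-1 and PBS-2, and in the cluster led by Sftpc, which encodes surfactant protein C, at 91.8, 159.1, 115.7 and 164.2 CPM. The cluster led by Msln and Aqp5 had 174.3 CPM in DEX-1 but 30.4, 11.1 and 27.3 CPM in the other litters, and the cluster led by Scgb1a1, the club cell secretoglobin, 17.6 to 37.3 CPM. Clusters were drawn from these same cells, so these levels are a description. The unnamed cluster of 323 cells led by Emp2, Hopx and Ager, with Sftpc at 71880 CPM, had Cd74 at 83.7 CPM. Of its Cd74 UMIs 21.2% lay in the 8 cells with all 4 genes.

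Against ILC2-like cells, 5 of the 7 members tested were higher and H2-Oa was lower in epithelial-like cells (74.6% of 12205 genes were called). H2-Aa (5 ILC2-like UMIs), H2-Eb1 (8), H2-DMb1 (3) and H2-DMa (38) passed the filter on low genes through the epithelial-like cells, so this number is no support by itself. Cd74 differed by 4.58 ± 0.15 log2 units (adjusted p = 5.33e-13, edgeR). For H2-Aa the difference was 3.56 ± 0.64 (adjusted p = 0.000124) and for H2-Eb1 2.86 ± 0.54 (adjusted p = 0.000203). H2-DMb1, with 3 UMIs in ILC2-like cells, was 54.1 times higher over pooled counts (exact 95% interval 18.1 to 266.2). H2-DMa was higher by 1.01 ± 0.33 (adjusted p = 0.0123), a call lost when cells were assigned by a per-cell marker gate (0.22, adjusted p = 0.462). H2-Oa was lower, at −3.91 ± 0.17 (adjusted p = 1.28e-11), and was −5.46 once likely doublets were removed by their Scrublet score, and H2-Ab1 did not pass (0.49 ± 0.39, adjusted p = 0.26). All 11 MHC class I genes on the list were lower in epithelial-like cells, B2m and H2-K1 among them (median −2.41, beside 0.07 over all genes).

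Against mesenchymal-like cells 2 of 4 members tested were called, where 49.2% of 11404 genes were called. By edgeR, H2-DMb1 was higher (3.07 ± 0.51, adjusted p = 0.000238) and H2-Oa lower (−1.93 ± 0.39, adjusted p = 0.00125). H2-DMb1, with 5 mesenchymal-like UMIs, passed the filter on low genes through the epithelial-like cells, so its call is no support by itself. Without likely doublets the H2-Oa difference was −3.31. Cd74 did not pass (1.54 ± 0.60, adjusted p = 0.05, which did not fall under the threshold). Mesenchymal-like Cd74 stood at 50.8, 14.6, 4.79 and 337.3 CPM in DEX-1, DEX-2, PBS-1 and PBS-2, and PBS-2 stood apart. In that class 7 cells with a UMI of the B cell gene Cd79a held 194 of its 210 Cd74 UMIs, and all 9 B cell markers had UMIs in the class, summed to 238.2, 141.1, 134.0 and 446.9 CPM in the same litters. Without those 7 cells the fitted Cd74 difference was 4.84 log2 units. This choice was made after the levels were seen and took away nearly all mesenchymal-like Cd74 UMIs, so the value is no support by itself. Without PBS-2 the Cd74 difference was 3.02 (adjusted p = 1.09e-05, edgeR).

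In basophil or mast-like cells, as in ILC2-like cells, H2-Oa had the highest level of the 9 genes. It stood at 85.9 and 67.0 CPM in the DEX and 81.4 and 68.4 CPM in the PBS litters of ILC2-like cells. The basophil or mast-like litters had 55.7 and 45.1 CPM under DEX and 50.9 and 43.4 CPM under PBS. The order B-like, ILC2-like, basophil or mast-like held with no overlap of litters. After thinning H2-Oa was read in 8.43% of ILC2-like and 4.9% of basophil or mast-like cells, against 0.446% of epithelial-like and 0 of 186 myeloid-like cells. Its partner H2-Ob was nearly absent there. H2-Ob made up 46.3% of 227 H2-Oa and H2-Ob UMIs in B-like cells (exact 95% interval 39.6 to 53.0), 8 of 992 in ILC2-like cells (0.806%, 0.349 to 1.58) and 41 of 1366 in basophil or mast-like cells (2.16% to 4.05%).

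ILC2-like cells had 84 UMIs of Cd74 in 1518 cells, 4.43 to 10.6 CPM, and 5 of H2-Aa. H2-Aa made up 5.62% of their H2-Aa and Cd74 UMIs (1.85 to 12.6), an interval that holds the B-like share of 6.76%. After thinning, Cd74 was read in 0.593% of ILC2-like cells, against 0 of 289 endothelial-like cells, and 5 of 9 B cell markers had UMIs in the class, summed to 56.3 to 76.8 CPM, with Pax5, Vpreb3 and Cd22 among those at 0. Cd74 at this level was not told apart from free RNA. H2-Ab1, with 40 UMIs against the 84 of Cd74, stood off the B-like ratio (32.3% of both, 24.2 to 41.2, against 4.83% in B-like cells). Of the 40, 29 lay in the cluster led by the cell cycle genes Ube2c and Birc5.

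In H2-Ab1 and H2-DMb1 the basophil or mast-like cells lay above ILC2-like cells. H2-Ab1 stood at 12.5, 16.1, 11.7 and 12.3 CPM in DEX-1, DEX-2, PBS-1 and PBS-2, against 5.00, 3.28, 3.62 and 0.984 CPM in ILC2-like cells. H2-DMb1 stood at 9.39, 7.54, 7.13 and 6.86 CPM, against at most 0.364 CPM. Every litter lay above all ILC2-like litters for both genes. With litter as a block, edgeR called H2-Ab1 (−2.17 ± 0.28 for ILC2-like over basophil or mast-like, adjusted p = 3.83e-05), H2-DMb1 (over pooled counts 33.5 times higher in basophil or mast-like cells, 11.3 to 163.8, adjusted p = 7.57e-07) and H2-Oa (0.53 ± 0.07, adjusted p = 6.53e-05), 3 of 5 members tested, where 62.6% of 11977 genes were called. H2-DMb1, with 3 ILC2-like UMIs, passed the filter through the basophil or mast-like cells. H2-DMa (−0.55 ± 0.26, adjusted p = 0.0874) and Cd74 (−0.26 ± 0.22, adjusted p = 0.31) did not pass. H2-Ab1 came without its α chain, since H2-Aa had 7 of the 374 UMIs of the pair.

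Of the other lists between these classes, 9 of 10 inducers tested were higher in ILC2-like cells, Irf1 and Ifngr1 among them, and Spi1 was higher in basophil or mast-like cells. The costimulators Cd86, Cd274 and Pdcd1lg2 were all 3 lower in ILC2-like cells, and 9 of 11 MHC class I genes were higher, H2-K1 included, while B2m was lower. Of 7 promoter factors Creb1, Nfyb, Nfyc and Rfxap were higher and Rfx5 did not pass (5.83 to 7.25 CPM in ILC2-like and 4.69 to 7.33 CPM in basophil or mast-like litters).

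H2-Oa varied more among the clusters of these classes than between the classes. Among basophil or mast-like clusters it stood at 115.0 CPM in the one led by Ccl4 and Acod1 and at 82.5 CPM in the one led by Mpo and Ctsg, which were those with the highest level of the basophil protease Mcpt8 (2355 and 2367 CPM). In the clusters richest in the mast cell protease Cma1, led by Syngr1, Speer4d and Mrgprb1, it stood at 24.1, 15.3 and 13.6 CPM. Every litter of the first pair lay above every litter of these 3. Among ILC2-like clusters the dividing cells led by Ube2c had 49.8 CPM, and the others 86.3 to 111.4 CPM. H2-DMb1 ran otherwise, with 2.29 CPM in the Ccl4-led cluster and 6.82 to 10.9 CPM in the other basophil or mast-like clusters. Clusters were drawn from these same cells, though without the members and other H2- genes, and no test was made of these differences.

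**Figure D3:**
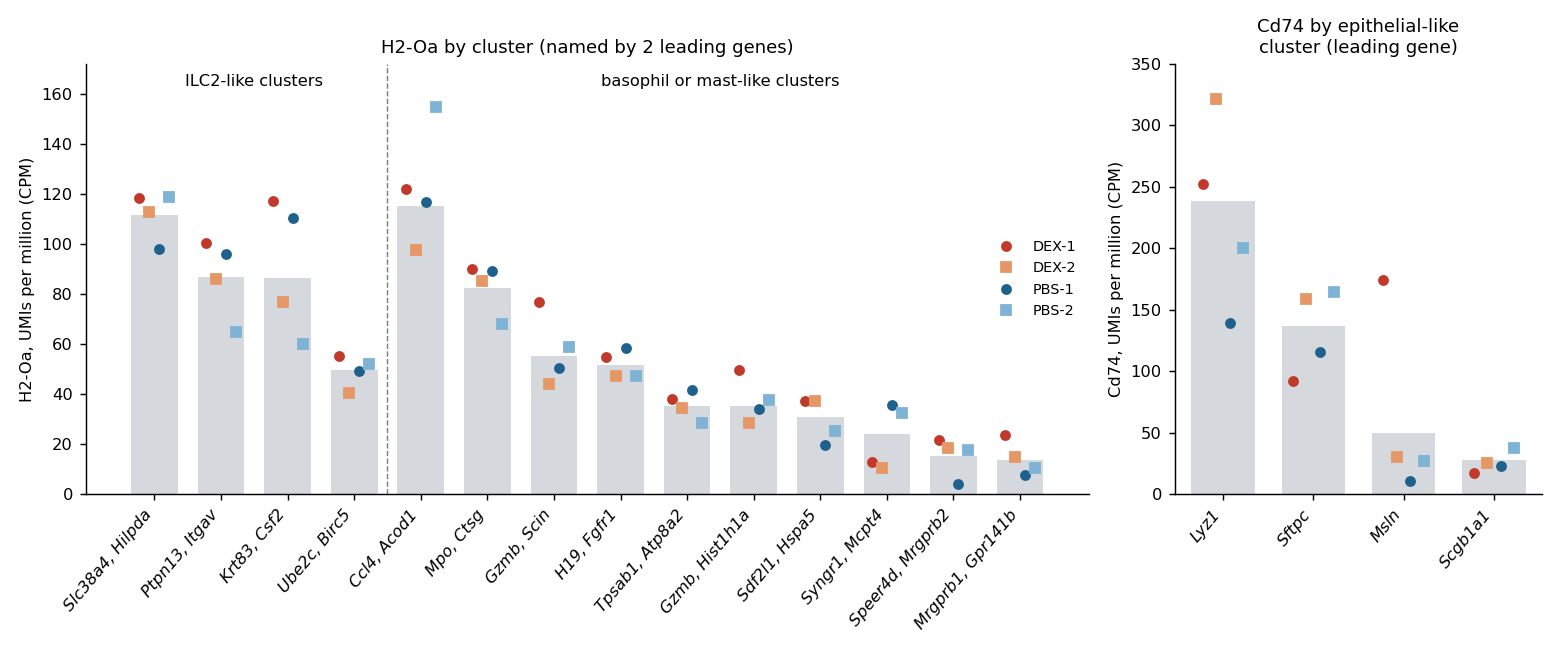
Left, H2-Oa in CPM in each basophil or mast-like and ILC2-like cluster (bars, 4 litters pooled; points, litters), ordered by level within class; right, Cd74 in the epithelial-like clusters. H2-Oa reaches 115.0 CPM in the Ccl4-led cluster and 13.6 CPM in the Mrgprb1-led one, and Cd74 238.7 CPM in the Lyz1-led epithelial cluster and 28.0 CPM in the Scgb1a1-led one.

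Of the sister genes H2-DMb1 and H2-DMb2, B-like cells held mostly H2-DMb2, and epithelial-like and basophil or mast-like cells mostly H2-DMb1. H2-DMb2 made up 238 of 241 UMIs of the pair in B-like cells (98.8%, exact 95% interval 96.4 to 99.7), 12 of 30 in myeloid-like cells (40%, 22.7 to 59.4, which holds an even split), 4 of 126 in epithelial-like cells (3.17%, 0.872 to 7.93) and 3 of 214 in basophil or mast-like cells (1.40%, 0.290 to 4.04). The genes are near-identical copies, so the counting could have split their reads, and the split is uncertain. H2-Aa made up 58.8% of the H2-Aa and H2-Ab1 UMIs in B-like cells (56.3 to 61.4), 54.4% in epithelial-like cells (42.8 to 65.7), 11.1% in ILC2-like cells (3.71 to 24.1) and 1.87% in basophil or mast-like cells (0.756 to 3.82). The interval of the last class lay below that of B-like cells. All intervals cover counting error only.

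**Figure D4:**
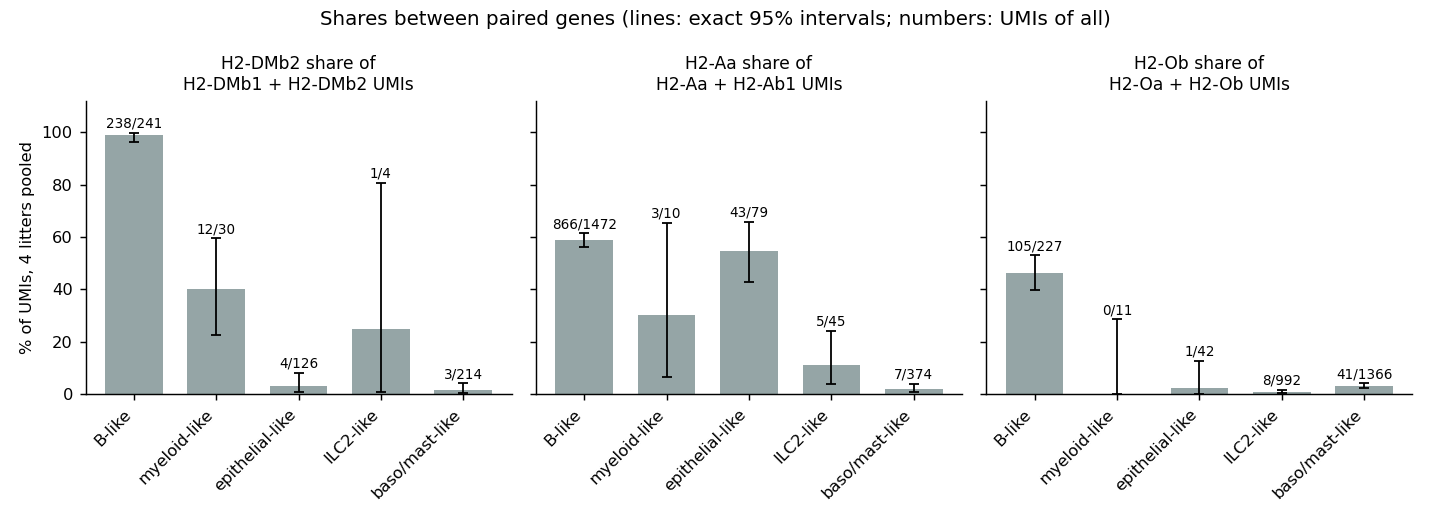
Share of 1 gene among the UMIs of a pair, 4 litters pooled, for H2-DMb2, H2-Aa and H2-Ob in 5 classes, with exact 95% intervals and the UMIs behind each bar. H2-DMb2 and H2-Ob are common in B-like cells and near 0 in epithelial-like and basophil or mast-like cells.

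Ciita had 14 UMIs in B-like, 12 in epithelial-like and 8 in ILC2-like cells and none in basophil or mast-like, myeloid-like, endothelial-like and mesenchymal-like cells. In basophil or mast-like cells this allows up to 0.110 CPM, at least 169 times below the B-like level. These cells had H2-Ab1, H2-DMb1 and H2-Oa UMIs in every litter with no Ciita UMI in any. Over the 28 sums of litter and class, the genes outside the list whose log2(CPM + 1) ran most like H2-Aa were Igkv8-27, Fcmr, Ighv2-2, Iglv1 and Ighv5-6 (Pearson's r 0.96 for each), and most like Ciita were Klhl14, Ighv2-2, Igkv6-32, Igkv8-27 and Gm8369 (0.95 each), given as a description since the sums share litters and all but the B-like ones are near 0. Among the 6 other members with a mean of at least 10 CPM, which leaves out H2-DMb1 and Ciita, H2-Eb1 ran most like H2-Aa (0.98) and H2-Oa least (0.49).

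The treatment comparison asked whether maternal DEX changed these genes in the fetus, and no member was called in any class by edgeR at an adjusted p under 0.05. Nor was any called by DESeq2 or limma-voom. Of the members tested, the log2 difference was above 0 for 7 of 7 in B-like, 5 of 6 in epithelial-like, 3 of 3 in ILC2-like, 5 of 5 in basophil or mast-like and 0 of 1 in myeloid-like cells, where 49.8% to 50.5% of all genes were above 0. Members share litters and cells, so these counts are a description. In bulk sums of a class, fewer cells with a transcript and fewer transcripts a cell cannot be told apart.

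In B-like cells 0 of 7 members tested were called (7 of 3294 genes, 0.213%), and H2-Oa alone had an unadjusted p under 0.05 (139 genes did). H2-Oa stood at 201.9 and 196.4 CPM in the DEX litters and 146.9 and 112.7 CPM in the PBS litters, a log2 difference of 0.60 ± 0.26 (adjusted p = 1). H2-Eb1 stood at 898.3 and 952.3 CPM against 744.3 and 739.7 CPM (0.31 ± 0.15, adjusted p = 1), and Cd74 differed by 0.10 ± 0.06. The DEX litters were both higher than either PBS litter for 5 of the 7 (H2-Oa, H2-Ab1, H2-Aa, H2-Eb1 and Cd74), as for 16.6% of all genes tested. The members are not independent, since the same cells held the chains. The median log2 difference of the 7 was 0.21, beside 0.00 over all genes.

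In epithelial-like cells 0 of 6 members tested were called (3 of 10907 genes, 0.0275%), and Cd74 alone had an unadjusted p under 0.05 (630 genes did). Cd74 was higher in both DEX litters, by 0.61 ± 0.16 log2 units (adjusted p = 0.848), and with no filter on low genes it was called (0.64, adjusted p = 0.00499). When litters were assigned by a ratio of hashtag counts the difference was 0.09 (adjusted p = 1). In the Lyz1-led cluster the DEX litters (252.4 and 321.0 CPM) lay above the PBS litters (139.6 and 200.5 CPM), and in the Sftpc-led cluster they overlapped. The Lyz1-led cluster made up 44.2% and 33.6% of epithelial-like cells in the DEX and 36.1% and 31.2% in the PBS litters, and 8 of 9 B cell markers had UMIs, summed to 60.0, 36.3, 29.8 and 43.2 CPM in DEX-1, DEX-2, PBS-1 and PBS-2, with Cd22 at 0. Their part in the difference was not tested. H2-DMa, H2-DMb1, H2-Aa and H2-Eb1 were also higher in both DEX litters, making 5 of 6 members as against 18% of all genes, and H2-Oa overlapped (−0.61 ± 0.51, adjusted p = 0.914).

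In ILC2-like cells 0 of 3 members tested were called, where 199 of 10078 genes were (1.97%). H2-Oa differed by 0.06 ± 0.13 (adjusted p = 0.948), Cd74 by 0.54 ± 0.38 (adjusted p = 0.694) and H2-Ab1 by 0.97 ± 0.56 (adjusted p = 0.578), and the litters of the 2 groups overlapped for all 3 (of all genes, 20.1% had both DEX litters above and 20% both below). Of the fixed lists, Ctsl, a lysosomal protease, and Ifngr1, a chain of the interferon-γ receptor, were higher in DEX litters. In basophil or mast-like cells no gene was called (0% of 11498, with 445 at an unadjusted p under 0.05, 9 called by DESeq2 and none by limma-voom), so 0 of 5 members were, their log2 differences lying between 0.11 for H2-Oa and 0.28 for H2-DMb1. H2-DMa, H2-DMb1 and H2-Ab1 were higher in both DEX litters, 3 of 5 against 14.4% of all genes. In myeloid-like cells, where the filter on low genes left out Cd74 (its DEX-2 level rested on the 1 cell above), H2-DMa was the only member tested and was not called (−0.13 ± 0.23, adjusted p = 0.977; 2 of 4956 genes were, 0.0404%), and was lower in both DEX litters, as were 17.3% of genes, while 18.6% were higher in both.

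An interaction term compared the DEX effect of ILC2-like cells with that of basophil or mast-like cells, and 0 of 5 members and 0% of 11977 genes were called (600 genes had an unadjusted p under 0.05, DESeq2 called 1 gene and limma-voom none). The difference of the effects was −0.07 ± 0.15 for H2-Oa and 0.72 ± 0.62 for H2-Ab1. With 2 litters a group, effects of this size in genes with few UMIs could not be told from the spread between litters.

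**Figure D5:**
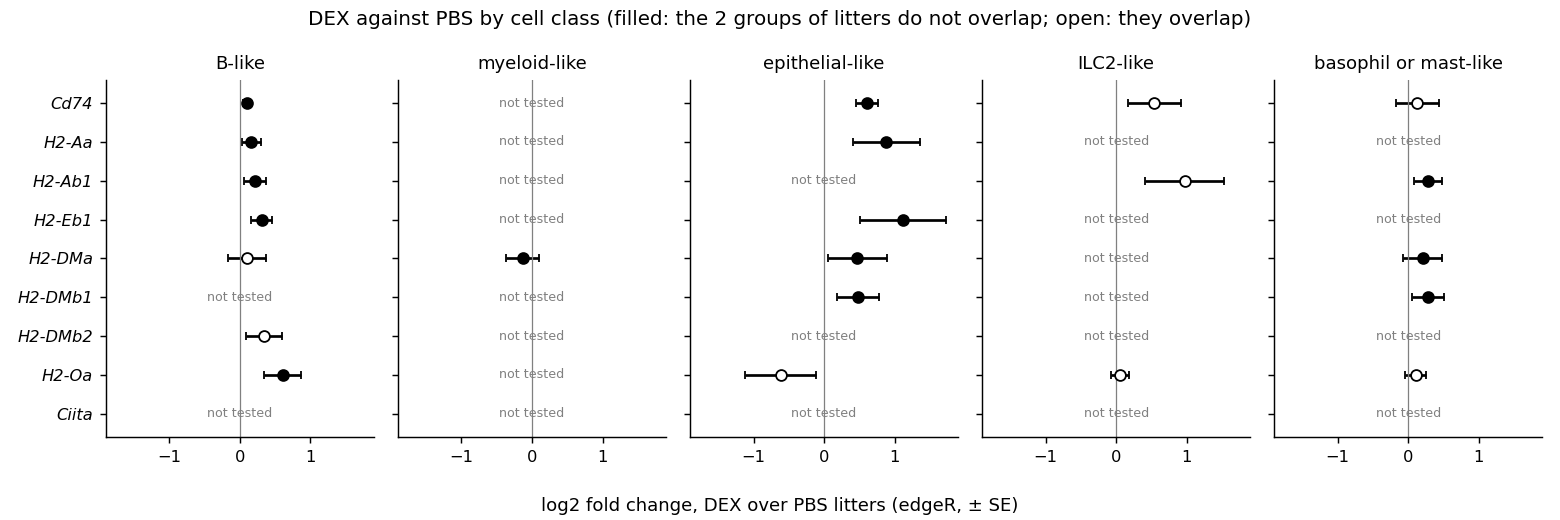
Log2 fold change of DEX over PBS litters with its standard error (edgeR, 2 litters a group) for the members tested in each class; filled points mark members whose DEX and PBS litters do not overlap. Most points lie right of 0 in B-like and epithelial-like cells, with H2-Oa at 0.60 and Cd74 at 0.61, and none passed the adjusted threshold.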

How the data were processed

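Per the labels and the study's methods, the authors sorted, pooled by litter and hashtagged the cells, and made UMI counts per gene and barcode with Cell Ranger 7 on mm10, filtered to called cells. These deposited counts were not normalized. Barcodes with at least 200 genes and at most 5% mitochondrial UMIs were kept (10409 of 10648), and HTODemux in Seurat 5.3.0 (quantile 0.99) gave 7268 cells of 1 litter, 736 doublets and 2405 barcodes with no call. Doublets within a litter (3.38% expected) could not be seen by hashtag. Cells were clustered with scanpy 1.11.5 (2000 variable genes, 20 components, 15 neighbours, Leiden resolution 1.5), and a cluster was named where at least 3 markers of a type were each read in 25% of its cells, their mean share was at least 30%, the next type's was at most 60% of it, no other type had more markers among the 10 leading genes, and depth was not far under that of other cells.

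UMIs were summed by litter and class. DEX and PBS litters were compared with edgeR 4.0.16 (quasi-likelihood test, TMM, filterByExpr, Benjamini-Hochberg over all genes tested), and classes with litter as a block. CPM values of litters are plain, while fold changes follow TMM scaling. Labels share only a number between groups, in 2 pairs. DESeq2 1.42.0 and limma 3.58.1 were alternatives. The edgeR comparisons were tested on simulated data, whereas DESeq2, limma-voom, the permutation test and the exact intervals were not. Named genes were all members, listed genes called in the comparison described, 7 context genes, and the 5 genes most like H2-Aa and Ciita over sums of at least 10 cells. The members and lists were chosen with earlier results of these data known. The sources differ on whether the 2 litters of a group came from separate mothers, as the labels and methods have it, or from a single dam a group, as a legend has it. The p-values measure only the spread between these pooled samples, which may be technical. Values of some listed genes are not reported here.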

Additional observations from a re-analysis of the deposited data

Results flagged for a closer look

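H2-DMa was higher in both DEX litters than in either PBS litter in basophil or mast-like cells (log2 fold change 0.20) and in epithelial-like cells (0.47), and lower in both in myeloid-like cells (−0.13). The opposite directions drew attention to it. The difference between classes was not tested, and no class passed the adjusted threshold by itself.

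Barcodes with no hashtag call entered no comparison, yet they held class II transcripts. Cd74 stood at 80.2 CPM over these 2405 barcodes, and 10 of them (0.416%) had UMIs of Cd74, H2-Aa, H2-Ab1 and H2-Eb1 together, against 1.43% of cells assigned to a litter.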

How the results depend on the processing

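Of 185 alternative values of the counts and summed levels 174 kept their side or stayed within the spread, and of 765 alternative values of single members 714 did so. No called direction turned. In myeloid-like cells, Cd74 entered the DEX comparison and made 1 called member with no filter on low genes (2.85, adjusted p = 6.78e-07 from edgeR), while leaving out 1 litter in turn gave 0 to 1, Cd74 being called without DEX replicate 1, PBS replicate 1 or PBS replicate 2. Of the Cd74 UMIs of the DEX-2 litter, 38 of 39 came from 1 cell. With no filter 1 member, Cd74, was called in epithelial-like cells under DEX. Between epithelial-like and mesenchymal-like cells 5 members were called with no filter and 4 at resolution 3, where the main count was 2. The summed level was 16110 CPM in B-like cells under the hashtag ratio rule and 17450 CPM by a per-cell marker gate, and in myeloid-like cells 608.4 CPM at resolution 0.5 and 1205 CPM by the gate. At resolution 0.5 the myeloid-like class was a cluster of 249 cells led by S100a8 and Ear2. It had 32, 55, 55 and 107 cells in DEX-1, DEX-2, PBS-1 and PBS-2, against 24, 38, 42 and 82 in the main clustering. There the S100a9-led cluster, left unnamed, had 8, 17, 13 and 25 cells in these litters. That cluster held 309 Cd74 UMIs, 214 of them in 2 DEX-1 cells. The cause of these shifts was not tested. H2-DMa passed between basophil or mast-like and ILC2-like cells at a mitochondrial limit of 10% (−0.82, adjusted p = 0.0189 from edgeR).

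The groups share only a number, in 2 pairs. With the replicate block 0 members were called in each of the 5 classes, while calls over all genes went from 199 to 368 in ILC2-like, 7 to 30 in B-like, 2 to 29 in myeloid-like and 3 to 0 in epithelial-like cells. Without the block the class comparisons called 3, 6, 2 and 4 members. Under the hashtag ratio rule no cell of any litter was classed as myeloid-like, so the myeloid-like comparisons could not be run. The gate could not be run for epithelial-like against mesenchymal-like cells, because PBS-2 had 7 mesenchymal-like cells, fewer than the 10 required. Ciita, with 14 UMIs in B-like cells, was too shallow for any test.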
